A study of Mus musculus with 18 samples.

Results

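The genes described here, 8 that guide thymocytes through the thymus, were followed in fetal thymocytes of 3 *Gli3* genotypes. They are the chemokine receptors *Ccr2*, *Ccr4*, *Ccr7*, *Ccr8*, *Ccr9*, *Cxcr3* and *Cxcr4*, and *Plxnd1*, a receptor for class 3 semaphorins. They were chosen by symbol for this role, but with earlier results of these data known, so the choice was not blind to the values. They make up 8 of the 22180 genes that could be tested. Thymocytes of *Gli3*-/-, *Gli3*+/- and WT fetuses at embryonic day 18.5, on a C57BL/6 background, were sorted by FACS into CD69- DP and CD69+ DP cells, which carry both CD4 and CD8 and differ in surface CD69, and SP4 cells, which are CD4+CD8-. Each of the 9 groups of genotype and population had 2 arrays, numbered 1 and 2, 18 arrays in all. RNA was measured on whole-transcript Affymetrix GeneChip Mouse Gene 2.0ST arrays. The *Gli3* mutation was carried by every cell of the fetus, stroma as well as thymocytes, and no other allele or agent distinguished the groups. A label such as WT1 was shared by 3 arrays, 1 of each population, and the labels do not say whether it stands for 1 fetus or a pool. Both *Gli3*+/- SP4 arrays had high *Xist*, of female cells (2977 to 3176), together with Y-linked *Eif2s3y* (282 to 410). So did 1 WT SP4 array (*Xist* 2726, *Eif2s3y* at least 311), while *Eif2s3y* was at 16.4 to 17.8 in *Gli3*-/- SP4 arrays. Labels with RNA of both sexes point to more than 1 fetus, and the other labels remain undecided. The p-values measure only the spread between these arrays.

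Chemokine receptors are G protein-coupled receptors that turn a gradient of a secreted ligand into directed movement, through inhibitory G proteins, phosphoinositide 3-kinase and small GTPases of the Rac and Rap families. In the thymus, Ccl25 and Cxcl12 made by stroma act on cortical thymocytes through Ccr9 and Cxcr4. After positive selection, cells gain receptors for ligands of the medulla, Ccr4 for Ccl17 and Ccl22 and Ccr7 for Ccl19 and Ccl21, while Plxnd1 is known to take part in the move from cortex to medulla through its ligand Sema3e. CD69 appears at the surface upon TCR signalling, so the 3 gates aim at cells before selection, under selection and after commitment to the CD4 lineage.

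Values are normalised intensities on a linear scale, and differences are given on the log2 scale with the standard error (SE) of a limma fit over all 18 arrays. Calls were made over all genes at an adjusted p under 0.05 (Benjamini-Hochberg), and "called", "rose" and "fell" are used of such genes. Array medians lay between 59.3 and 65.8. The 8 genes were each measured by a single row of the array, and the mean of each was above the median of all rows (62.7). *Cd69* had an intensity of 92.0 to 220.3 in CD69- DP arrays, 675 to 1416 in CD69+ DP arrays and 539 to 894 in SP4 arrays, as sorted. *Cd8a*, which the SP4 gate leaves out, was still measured at 1120 to 2689 in SP4 arrays, against 2951 to 4101 in CD69+ DP arrays. *Cd8b1* (1721 to 3371, against 2882 to 4311) and *Rag2* (475 to 1377, against 623 to 1679) overlapped between these populations. *Zbtb7b*, of the CD4 lineage, did too (67.2 to 112, against 65.2 to 75.5). SP4 arrays thus still held RNA of genes of the DP stage, and its part in the differences of SP4 cells was not tested. *Gli3* was dim on every array (27.6 to 37.1), WT included, and so gave no check of the genotype labels. Genotypes were not balanced for sex, since 3, 2 and 2 of 4 sex-linked genes were called lower in *Gli3*-/- than in WT cells in the CD69- DP, CD69+ DP and SP4 populations. *Cxcr3* lies on chromosome X.

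*Ccr2*, *Ccr4*, *Ccr8* and *Ccr9* lie on chromosome 9, and these 4 were also the members called higher in CD69+ DP than in CD69- DP cells. The 250 bases before their annotated start sites are shown for that reason, 5′ to 3′ on the strand of the gene, from RefSeq on GRCm38.p6. Capitals mark the E-box of E proteins (CAGNTG) and the Runx site (TGNGGT), each on either strand, both known as sites of factors that act in thymocytes.
*Ccr2*, chr9:124101933-124102182, + strand: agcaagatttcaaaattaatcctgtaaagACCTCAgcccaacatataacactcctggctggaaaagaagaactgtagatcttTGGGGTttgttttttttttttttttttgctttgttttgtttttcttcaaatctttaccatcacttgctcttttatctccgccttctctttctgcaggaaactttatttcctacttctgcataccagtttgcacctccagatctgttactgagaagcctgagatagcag
*Ccr4*, chr9:114496545-114496794, - strand: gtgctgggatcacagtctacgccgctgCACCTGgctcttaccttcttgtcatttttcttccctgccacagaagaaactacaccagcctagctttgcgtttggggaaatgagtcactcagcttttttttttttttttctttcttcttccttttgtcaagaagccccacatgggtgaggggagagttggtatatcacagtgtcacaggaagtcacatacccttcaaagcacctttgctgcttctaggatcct
*Ccr8*, chr9:120091883-120092132, + strand: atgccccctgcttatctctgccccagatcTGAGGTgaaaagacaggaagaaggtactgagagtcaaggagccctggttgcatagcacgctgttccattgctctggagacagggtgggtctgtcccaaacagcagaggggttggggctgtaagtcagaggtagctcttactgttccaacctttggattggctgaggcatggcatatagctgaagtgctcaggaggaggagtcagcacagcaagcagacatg
*Ccr9*, chr9:123766961-123767210, + strand: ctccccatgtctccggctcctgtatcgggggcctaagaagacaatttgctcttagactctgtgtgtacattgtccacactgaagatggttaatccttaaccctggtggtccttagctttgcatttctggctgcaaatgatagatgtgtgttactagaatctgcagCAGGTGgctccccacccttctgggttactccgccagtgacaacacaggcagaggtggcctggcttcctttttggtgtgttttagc
These windows differ in what they hold. An E-box lay at bases -223 to -218 of *Ccr4* and -85 to -80 of *Ccr9*, counted from the start site, and there was none in the windows of *Ccr2* and *Ccr8*. The loose Runx pattern lay at -221 to -216 in *Ccr8* and at -221 to -216 and -168 to -163 in *Ccr2*, and was absent from those of *Ccr4* and *Ccr9*. These matches have A or G at the third position (TGAGGT in *Ccr8*, ACCTCA, read on the other strand, and TGGGGT in *Ccr2*). They therefore match the loose pattern only and not the known Runx site. Of the 7 members in the RefSeq table used (*Ccr7* is not among them), 3 had an E-box, against 44.5% of 27025 promoters of the same length. The loose Runx pattern was in 3, against 39.9%. A Klf and Sp site (CCNCNCCC) lay in 4 of 7, against 45.6% of promoters, and an Egr site (GCGNGGGCG) in 1 of 7, *Cxcr4*, against 4.65%. *Ccr2* held an NFAT core (GGAAAA, 20.6% of promoters) and *Cxcr4* a TATA box (TATAAA, 13.0% of promoters), and no other member did. The E-box and the loose Runx pattern overlap neither each other nor the other motifs in the 4 windows printed. *Ccr8* lies next to the receptor gene *Cx3cr1*, and *Cxcr6* and *Xcr1* lie within 3 genes of *Ccr9*.

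**Figure D1:**
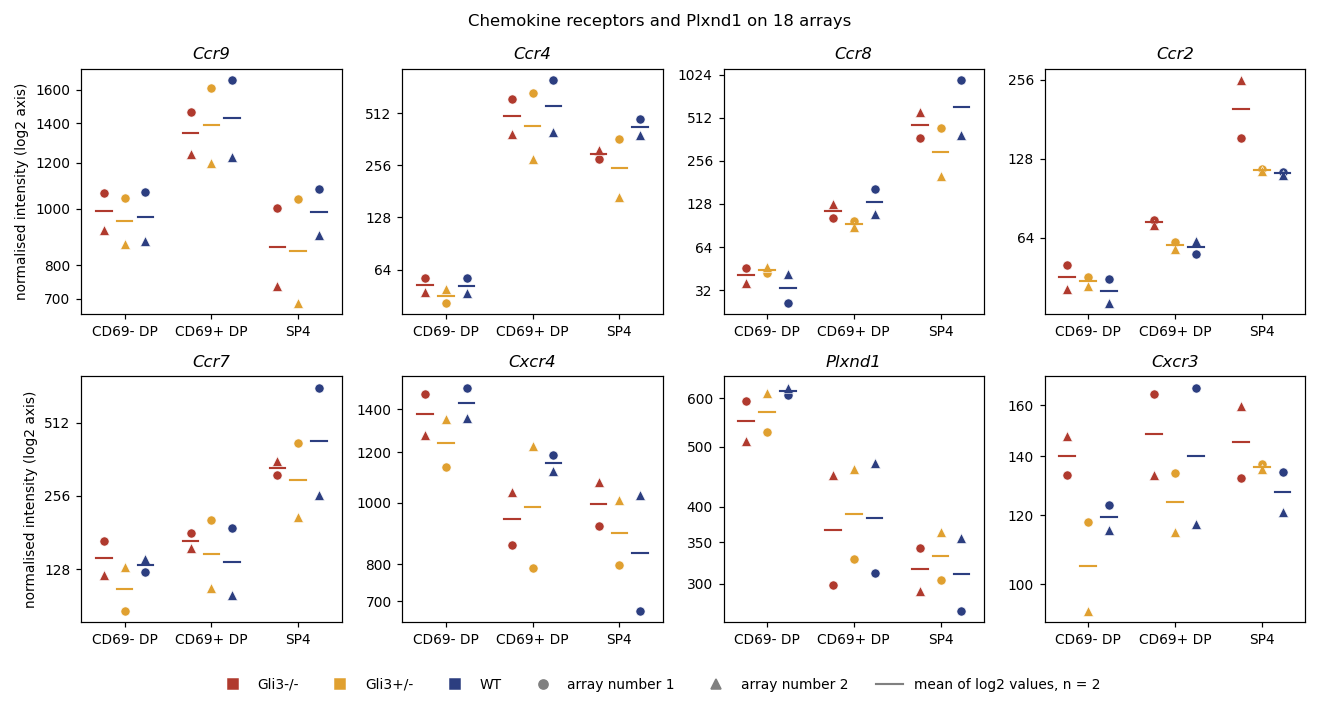
Normalised intensity (log2 axis) of the 8 genes on 18 arrays, by population (x axis) and genotype (colour), with circles for arrays numbered 1, triangles for arrays numbered 2 and lines for the mean of log2 values of each group (n = 2). *Ccr4* lies at 41.1 to 57.4 in CD69- DP and 277 to 796 in CD69+ DP arrays, and *Ccr8* and *Ccr2* are higher in each later population.

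The comparison of CD69+ DP with CD69- DP cells asks which receptors move as thymocytes receive the signal for selection. *Ccr4*, *Ccr8*, *Ccr2* and *Ccr9* were higher in CD69+ DP cells and *Plxnd1* was lower. Thus 5 of the 8 genes were called, 4 higher and 1 lower, where 7.79% of all genes were called, 3.06% higher and 4.73% lower. With the array number as a block (number 2 against number 1 as a term of the fit) 6 were called, where 12.1% of all genes were. The median difference of the 8 genes was 0.39, against 0.01 over all genes. Arrays of the 2 populations did not overlap for these 5 genes, as for 5.87% of all genes. The same direction in 6 of 6 labels such as WT1 was less rare, and was seen for 17.5% of all genes.

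*Ccr4*, the receptor for the medullary chemokines Ccl17 and Ccl22, showed the widest separation of the 8. Its intensity was 277 to 796 (median 509) in the 6 CD69+ DP arrays, against 41.1 to 57.4 (median 48.7) in the 6 CD69- DP arrays. Every CD69+ DP array was well above every CD69- DP array. The difference was 3.31 (SE 0.24, limma adjusted p = 3.88e-06), a 9.90-fold rise, and it lay between 2.48 and 4.01 in the 6 labels such as WT1. The same gene was called in each genotype alone, with 3.23 in *Gli3*-/-, 3.25 in *Gli3*+/- and 3.44 in WT cells (SE 0.42 each, n = 2 against 2, limma adjusted p = 0.00451, 0.00513 and 0.00201).

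*Ccr8*, the receptor for Ccl1, is known on mature thymocytes. It had an intensity of 88.5 to 163 (median 106) in CD69+ DP arrays, against 26.0 to 46.2 (median 42.0) in CD69- DP arrays. The ranges were apart, and the gene was dim before the step. It rose 2.87-fold (log2 1.52, SE 0.23, limma adjusted p = 0.00143), by 0.94 to 2.64 in the 6 labels.

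*Ccr2*, the receptor for Ccl2 and best known from monocytes, was at 55.7 to 74.8 (median 62.2) in CD69+ DP arrays, against 36.1 to 50.3 (median 43.3) in CD69- DP arrays. These values are close to the median of all rows, but did not overlap. The rise was 1.48-fold (log2 0.57, SE 0.11, limma adjusted p = 0.00634). Arrays of number 1 alone gave *Ccr2* 0.44 higher (limma adjusted p = 0.00624), and those of number 2 alone 0.69 higher (adjusted p = 0.0723).

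*Ccr9*, the receptor for Ccl25 made by thymic epithelium, was at 1199 to 1664 (median 1352) in CD69+ DP arrays, against 869 to 1066 (median 980) in CD69- DP arrays. The rise of 1.43-fold (log2 0.52, SE 0.13, limma adjusted p = 0.0290) was small but was seen in each of the 6 labels, at 0.43 to 0.64. Its call was lost without any 1 of 6 arrays, number 1 of CD69+ DP or number 2 of CD69- DP in each genotype, when the difference was 0.44 to 0.48 and the adjusted p 0.0826 to 0.102. With the array number as a block, the adjusted p was 0.000112.

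*Plxnd1* was the 1 gene of the 8 called lower, at 299 to 471 (median 389) in CD69+ DP arrays and 512 to 624 (median 600) in CD69- DP arrays. Every CD69+ DP array was below every CD69- DP array. The level fell by 0.61 (SE 0.14, limma adjusted p = 0.0141), 1.52-fold lower, and by 0.19 to 0.99 in the 6 labels. Without array 1 of WT CD69+ DP the difference was -0.51 at an adjusted p of 0.0521. It was -0.88 with arrays of number 1 alone (adjusted p = 0.000113) and -0.33 with arrays of number 2 alone (adjusted p = 0.0998).

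*Cxcr4*, the receptor for Cxcl12, lay at 790 to 1227 (median 1080) in CD69+ DP arrays, against 1139 to 1515 (median 1355) in CD69- DP arrays, and the ranges overlapped. It was lower in CD69+ DP cells in 6 of 6 labels, by 0.14 to 0.79, with a difference of -0.40 (SE 0.13, limma adjusted p = 0.0837). It was called with the array number as a block (adjusted p = 0.0245), without array 2 of *Gli3*+/- CD69+ DP (-0.50, adjusted p = 0.0198) and with arrays of number 1 alone (-0.55, adjusted p = 0.0280).

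*Ccr7*, which draws thymocytes into the medulla, and *Cxcr3*, a receptor for interferon-induced chemokines found on mature and innate-like T cells, were not called. *Ccr7* was at 99.96 to 204 (median 168) in CD69+ DP arrays, against 86.4 to 167 (median 128) in CD69- DP arrays, a difference of 0.25 (95% interval -0.32 to 0.82, limma adjusted p = 0.682). The difference was 0.65 with arrays of number 1 alone and -0.14 with arrays of number 2 alone. *Cxcr3* was at 115 to 168 (median 134), against 93.3 to 148 (median 121), a difference of 0.19 (-0.04 to 0.41, adjusted p = 0.362). Both pairs of ranges overlapped widely.

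Markers of other cells, and of other T cells, also moved at this step. Of regulatory T cell markers 2 of 6 were called higher in CD69+ DP than in CD69- DP cells, *Ikzf2* (1041 to 2023 in CD69+ DP arrays, against 340 to 406 in CD69- DP arrays) and *Tnfrsf9* (88.6 to 142, against 61.5 to 78.2), while *Foxp3*, which defines these cells, was at 51.3 to 68.6, against 43.2 to 66.1. That list summed to 1546 to 2522, against 751 to 865, with no overlap, but the sum mostly followed *Ikzf2*. In CD69+ DP arrays *Ikzf2* had a median of 1564, beside 2035 for the list, and in CD69- DP arrays 382, beside 815. *Ctla4*, *Tnfrsf4* and *Tnfrsf18* of the list overlapped between the populations, as did *Foxp3*. Of NK and innate-like T cell markers 9 of 9 were higher and 3 called (*Nkg7*, *Klrd1* and *Il2rb*), with sums of 1125 to 1620, against 911 to 1238. Of monocyte and macrophage markers 8 of 9 were higher and 1 called (*Ly6c2*), with sums of 463 to 533, against 431 to 444. Of 4 gamma delta T cell markers 1 was called higher, 0 of 10 neutrophil markers were called, and of 8 dendritic cell markers 0 were called higher and 1 lower. Their part in the rises of *Ccr4*, *Ccr8*, *Ccr2* and *Ccr9* was not tested.

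**Figure D2:**
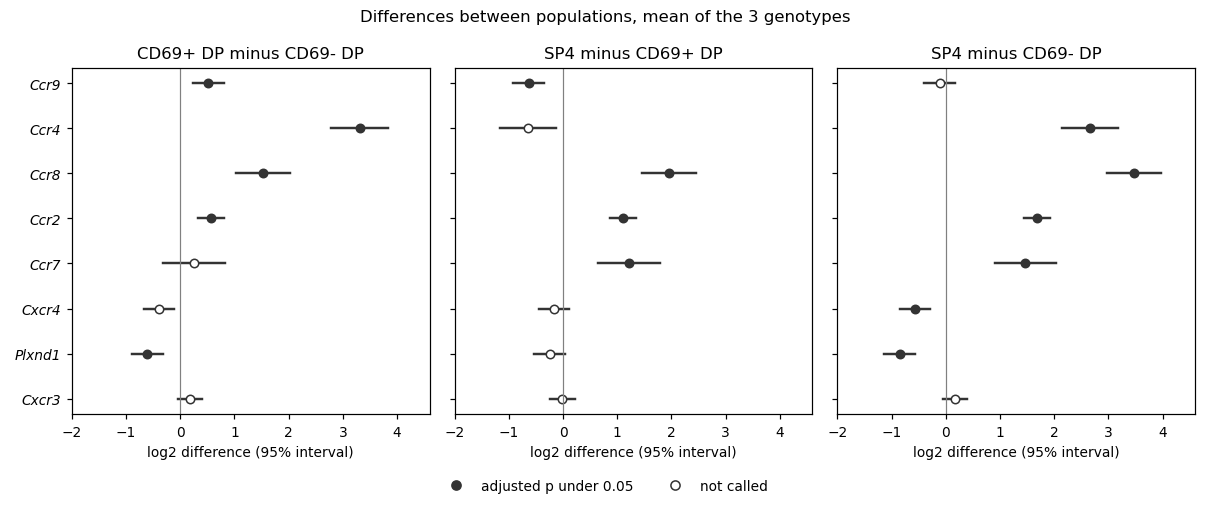
Log2 differences of the 8 genes (y axis) between populations, mean of the 3 genotypes, with 95% intervals, in 3 panels (CD69+ DP minus CD69- DP, SP4 minus CD69+ DP, SP4 minus CD69- DP). Filled points passed an adjusted p of 0.05. *Ccr4* is at 3.31 in the first panel and -0.65, open, in the second, while *Ccr9* is at 0.52 and then -0.63.

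The comparison of SP4 with CD69+ DP cells follows the receptors into the CD4 lineage. *Ccr8*, *Ccr7* and *Ccr2* were higher in SP4 cells and *Ccr9* was lower. This made 4 of the 8 genes called, 3 higher and 1 lower, where 6.15% of all genes were called, 4.41% higher and 1.74% lower. With the array number as a block 5 were called, where 11.2% of all genes were. The median difference of the 8 was -0.09, against -0.02 over all genes, and the same 4 genes had no overlap between the populations, as did 4.46% of all genes. At this step 17.3% of all genes had the same direction in 6 of 6 labels. Both this comparison and the previous one use the CD69+ DP arrays, so that their differences are not independent.

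*Ccr8* was at 201 to 942 (median 411) in SP4 arrays, against 88.5 to 163 (median 106) in CD69+ DP arrays. Each SP4 array was above each CD69+ DP array, and the highest, array 1 of WT at 942, was far from the lowest, array 2 of *Gli3*+/- at 201. The rise was 3.87-fold (log2 1.95, SE 0.23, limma adjusted p = 0.000355), by 1.19 to 2.53 in the labels.

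*Ccr7* was at 209 to 714 (median 334) in SP4 arrays, against 99.96 to 204 (median 168) in CD69+ DP arrays. It was called at this step and not at the first, with a rise of 2.32-fold (log2 1.22, SE 0.27, limma adjusted p = 0.0145), by 0.80 to 1.92 in the labels. Its labels differed by -0.50 to 1.24 at the first step, so an earlier part of the rise is not excluded. Array 1 of WT SP4, the highest for both *Ccr7* and *Ccr8*, also had the lowest *Cd8a* of the SP4 arrays (1120). Without that array *Ccr7* was 0.97 higher (adjusted p = 0.0344) and *Ccr8* 1.74 higher (adjusted p = 0.000764) in SP4 cells.

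*Ccr2* was at 111 to 256 (median 116) in SP4 arrays, against 55.7 to 74.8 (median 62.2) in CD69+ DP arrays. Both *Gli3*-/- SP4 arrays were above the other 4, which lay close together. The rise was 2.16-fold (log2 1.11, SE 0.11, limma adjusted p = 0.000121), by 0.83 to 1.83 in the labels.

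*Ccr9* was at 689 to 1081 (median 952) in SP4 arrays, against 1199 to 1664 (median 1352) in CD69+ DP arrays. It fell in each of the 6 labels, by 0.44 to 0.80. The difference was -0.63 (SE 0.13, limma adjusted p = 0.0117), 1.55-fold lower, so that its highest level of the 3 populations was in CD69+ DP cells.

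*Ccr4* was at 168 to 471 (median 339) in SP4 arrays and 277 to 796 (median 509) in CD69+ DP arrays, with overlapping ranges. It was lower in SP4 in 6 of 6 labels, by 0.07 to 1.15. Its difference of -0.65 (SE 0.24) did not pass the test (limma adjusted p = 0.149) but did with the array number as a block (adjusted p = 0.0261), without array 2 of *Gli3*+/- CD69+ DP (-0.85, adjusted p = 0.0358) and with arrays of number 1 alone (-0.93, adjusted p = 0.00126).

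The remaining genes were not called at this step. *Cxcr4* was at 677 to 1078 (median 964) in SP4 arrays, against 790 to 1227 (median 1080), with a difference of -0.18 (95% interval -0.45 to 0.10). *Plxnd1* was at 271 to 364 (median 323), against 299 to 471 (median 389), with a difference of -0.25 (-0.54 to 0.05), and *Cxcr3* was at 121 to 160 (median 135), against 115 to 168 (median 134), with a difference of -0.01 (-0.23 to 0.21). All 3 pairs of ranges overlapped, and *Plxnd1* was called with arrays of number 2 alone (-0.46, limma adjusted p = 0.0250) but not with those of number 1 alone (-0.04, adjusted p = 0.884).

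Markers of other cells were also higher in SP4 arrays. In SP4 against CD69+ DP cells 7 of 8 dendritic cell markers, 4 of 10 neutrophil markers, 3 of 9 monocyte and macrophage markers (5 with the array number as a block) and 4 of 9 NK and innate-like T cell markers were called higher. Summed over its list, the dendritic level was 1212 to 2530 in SP4 arrays, against 662 to 837 in CD69+ DP arrays, and the 2 ranges did not overlap. Monocyte and macrophage markers summed to 591 to 1150, against 463 to 533, neutrophil markers to 579 to 1492, against 413 to 826, and NK and innate-like markers to 1237 to 2785, against 1125 to 1620. Single markers were unequal. *H2-Ab1*, of MHC class II, was at 279 to 1262 in SP4 arrays, against 104 to 192 in CD69+ DP arrays, the neutrophil gene *S100a8* at 126 to 619, against 19.9 to 226, and the myeloid genes *Ly6c2* at 117 to 395, against 42.0 to 75.6, and *Lyz2* at 77.1 to 257, against 35.4 to 72.1. *Nkg7* was at 242 to 559, against 189 to 252, and *Il2rb* at 139 to 473, against 76.6 to 127, and these 6 genes were all called higher. *Cd14* (23.3 to 29.6), *Adgre1* (31.7 to 53.9), *Klrb1c* (32.6 to 41.4) and *Ncr1* (36.8 to 60.3) were below the median of all rows in each SP4 array. Regulatory T cell markers summed to 1207 to 1546 in SP4 arrays, with 1 of 6 called higher and 1 lower than in CD69+ DP cells. The part of these cells in the rises of *Ccr2*, *Ccr7* and *Ccr8* was not tested. In bulk RNA, fewer cells of a type and less RNA per cell cannot be told apart.

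**Figure D3:**
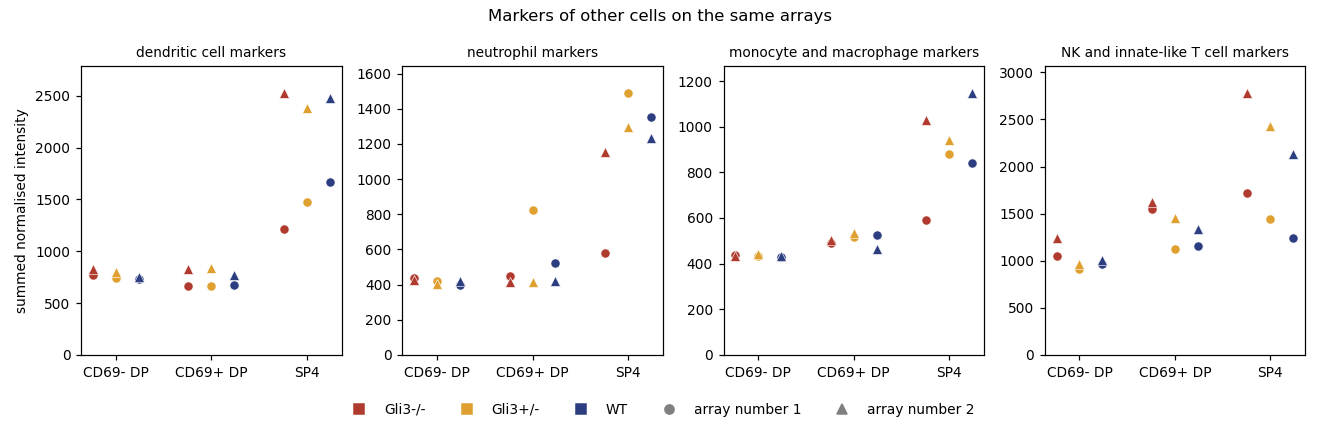
Summed normalised intensity (y axis) of 4 marker lists on each of the 18 arrays, by population (x axis) and genotype (colour), with circles for arrays numbered 1 and triangles for arrays numbered 2. Dendritic cell markers sum to 1212 to 2530 in SP4 arrays and 662 to 837 in CD69+ DP arrays, which do not overlap.

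Over both steps together, SP4 against CD69- DP cells, 6 of the 8 genes were called, where 9.78% of all genes were (5.94% higher and 3.84% lower; 6 of 8 and 14.1% with the array number as a block). *Ccr8* was 11.1-fold higher in SP4 cells (log2 3.48, SE 0.23, limma adjusted p = 1.35e-06), *Ccr4* 6.33-fold (2.66, adjusted p = 1.54e-05), *Ccr2* 3.20-fold (1.68, adjusted p = 1.30e-06) and *Ccr7* 2.77-fold (1.47, adjusted p = 0.00248). *Plxnd1* was 1.81-fold lower (-0.85, adjusted p = 0.00104) and *Cxcr4* 1.49-fold lower (-0.57, adjusted p = 0.0107). These 6 genes had no overlap between the SP4 and CD69- DP arrays, as did 6.83% of all genes. *Ccr9* was at 689 to 1081 in SP4 arrays and 869 to 1066 in CD69- DP arrays, and *Cxcr3* at 121 to 160 and 93.3 to 148, with differences of -0.11 (95% interval -0.40 to 0.17) and 0.18 (-0.05 to 0.40). *Cxcr4* differed by -0.79 with arrays of number 1 alone (adjusted p = 0.00357) and by -0.36 with arrays of number 2 alone (adjusted p = 0.0683).

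In order of the 3 populations, *Ccr2* and *Ccr8* thus rose at both steps, *Ccr4* rose at the first, *Ccr7* at the second, *Ccr9* rose and then fell, *Plxnd1* fell at the first, and *Cxcr4* was called lower only across both. From the lowest to the highest of the 9 group means, the genes spanned 4.20 (*Ccr8*), 3.64 (*Ccr4*), 2.302 (*Ccr2*), 2.02 (*Ccr7*), 0.99 (*Plxnd1*), 0.78 (*Cxcr4*), 0.76 (*Ccr9*) and 0.50 (*Cxcr3*) on the log2 scale.

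Other genes of the pathway were counted by list. Of 18 other receptors, chemokine receptors together with *Cmklr1* and *Gpr183*, whose ligands are not chemokines, 2 were called higher in CD69+ DP than in CD69- DP cells and 0 lower. These were *Gpr183*, a receptor for oxysterols (193.8 to 359 in CD69+ DP arrays, against 105 to 149 in CD69- DP arrays, log2 1.07, SE 0.19, limma adjusted p = 0.00351), and *Cx3cr1*, the receptor for Cx3cl1 and the neighbour of *Ccr8* (169.8 to 225, against 104 to 159, log2 0.55, SE 0.11, adjusted p = 0.00750). Neither overlapped between the populations. In SP4 against CD69+ DP cells 0 were called, and 1 higher and 1 lower with the array number as a block.

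Of 13 ligands of the receptors, *Ccl22* was called higher in CD69+ DP cells, and *Ccl22* and *Ccl17*, both ligands of Ccr4, in SP4 cells. *Ccl22* was at 67.1 to 135 in CD69+ DP arrays, against 37.1 to 62.1 in CD69- DP arrays (log2 0.996, SE 0.21, limma adjusted p = 0.0102), and at 148 to 381 in SP4 arrays (1.23 above CD69+ DP, adjusted p = 0.00366). *Ccl17* was at 54.0 to 217 in SP4 arrays, against 30.5 to 38.9 in CD69+ DP arrays (log2 1.44, SE 0.22, adjusted p = 0.00203), and these arrays carried the dendritic cell markers given above. Both are known products of dendritic cells, whose part was not tested.

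Among 18 other plexins, neuropilins and semaphorins, 0 were called higher and 2 lower in CD69+ DP than in CD69- DP cells. *Nrp1*, a co-receptor of plexins for class 3 semaphorins, was at 61.6 to 219 in CD69+ DP arrays, against 316 to 440 in CD69- DP arrays (log2 -1.73, SE 0.30, limma adjusted p = 0.00310). It was at 152 to 417 in SP4 arrays, 1.29 above CD69+ DP cells (SE 0.30, adjusted p = 0.0193). *Sema7a*, a membrane-bound semaphorin, was lower in CD69+ DP cells (-0.64, adjusted p = 0.00340), while *Sema4a* (0.67, adjusted p = 0.00371) and *Plxnc1*, the receptor of Sema7a (0.42, adjusted p = 0.0207), were higher in SP4 than in CD69+ DP cells.

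Downstream of the receptors, 2 of 22 signalling genes were called higher in CD69+ DP than in CD69- DP cells, where 3.06% of all genes were. These were *Rap1b*, a small GTPase of integrin activation (0.42, limma adjusted p = 0.0123), and *Pik3cg*, the kinase that G proteins activate (0.31, adjusted p = 0.0341). *Pik3cg* was lower again in SP4 than in CD69+ DP cells (-0.42, adjusted p = 0.00843) and *Tiam1*, which activates Rac, was higher (0.41, adjusted p = 0.0185). Of 13 genes that end receptor signalling, *Rgs10*, a GTPase-activating protein, was at 611 to 875 in CD69+ DP arrays, against 323 to 408 in CD69- DP arrays (log2 1.06, SE 0.10, adjusted p = 5.72e-05), and *Arrb2*, a beta-arrestin, was 0.44 higher (adjusted p = 0.0288). At the second step *Rgs10* fell by 0.60 (adjusted p = 0.00390) in SP4 cells, and *Rgs16* (0.96, adjusted p = 0.00172) and *Rgs18* (0.78, adjusted p = 0.0147), of the same family, were higher.

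When the fit held the array number as a block, 1 more gene in each of the plexin, signalling and desensitisation lists passed at the first step and 2 more of the desensitisation list at the second. The share of all genes called also rose with the block, to 12.1% at the first step and 11.2% at the second.

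Genotypes were compared to ask whether loss of *Gli3* altered the receptors within a population. None of the 8 genes was called: the count was 0 of 8 in *Gli3*-/- against WT cells, where 0.0135%, 0.00902% and 0.0135% of all genes were called (CD69- DP first, then CD69+ DP, then SP4), and 0 of 8 in *Gli3*+/- against WT cells, where 0% were called in each population. At an unadjusted p under 0.05, 446, 646 and 1139 genes passed in *Gli3*-/- against WT cells (2.01%, 2.91% and 5.14% of all genes). In *Gli3*+/- against WT cells 392, 550 and 914 passed (1.77%, 2.48% and 4.12%), in the same order of populations. These shares are near or below the 0.05 that would pass if no gene differed. An unadjusted p under 0.05 is the threshold that the methods give for the arrays. By it 2 members passed, *Ccr2* in *Gli3*-/- and *Ccr8* in *Gli3*+/- SP4 cells. The count of members called was also 0 with the array number as a block (0.0135%, 0.0135% and 0.0225% of all genes in *Gli3*-/- against WT cells), as it was after the same adjustment by an unmoderated test of the same arrays. With 2 arrays a group, 95% intervals were wide, and a value that misses the threshold does not show that genotypes had the same level.

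*Ccr2* had intensities of 154 and 256 in the 2 *Gli3*-/- SP4 arrays and 117 and 115 in *Gli3*+/- SP4 arrays, against 114 and 111 in WT SP4 arrays. Both *Gli3*-/- arrays were above every other SP4 array, and they differed most from each other. The difference between *Gli3*-/- and WT was 0.81 (SE 0.19, 95% interval 0.40 to 1.23, unadjusted p = 0.000846, limma adjusted p = 0.823). It rested unequally on its arrays: without array 1 of *Gli3*-/- SP4, it was 1.18 and passed the test (adjusted p = 0.0346), and without the other it was 0.45. The direction was the same in CD69- DP (50.3 and 40.7 in *Gli3*-/-, against 44.7 and 36.1 in WT) and CD69+ DP cells (74.8 and 71.9 in *Gli3*-/-, against 55.7 and 62.5 in WT), of which the first pair overlapped. Averaged over the populations the difference was 0.43 (SE 0.11, unadjusted p = 0.00162, limma adjusted p = 0.9995), with 0 of 8 members and 0.0135% of all genes called.

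Markers of other cells also differed beside this difference, and not all in the same direction. In *Gli3*-/- against WT SP4 cells, 8 of 9 NK and innate-like T cell markers were higher, 0 of them called, with a median difference of 0.35, and 2 of 9 monocyte and macrophage markers were higher, with a median of -0.32. The NK and innate-like list summed to 1714 and 2785 in *Gli3*-/- SP4 arrays, against 1237 and 2128 in WT SP4 arrays, the array of number 2 being the higher in both genotypes. Monocyte and macrophage markers summed to 591 and 1031 in *Gli3*-/- SP4 arrays, against 842 and 1150 in WT SP4 arrays. With the lower value first, dendritic cell markers summed to 1212 and 2530 in *Gli3*-/-, against 1663 and 2482 in WT SP4 arrays. Gamma delta T cell markers summed to 419 and 630, against 373 and 423. Thus the *Gli3*-/- array with more *Ccr2* had more of each of these lists, while its genotype had less of the monocyte list. The part of these cells in the *Ccr2* result was not tested.

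*Ccr8* was lowest of the SP4 groups in *Gli3*+/-, with 371 and 558 in *Gli3*-/- and 432 and 201 in *Gli3*+/- SP4 arrays, against 942 and 390 in WT SP4 arrays. The groups overlapped. *Gli3*+/- was -1.04 from WT (SE 0.40, unadjusted p = 0.0217, limma adjusted p = 0.9998), and without array 1 of WT SP4 it was -0.40.

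The medullary receptors *Ccr4* and *Ccr7* had their highest SP4 value in the same WT array, which was also highest for *Ccr8* and lowest for *Cd8a*. *Cd8a* was at 2064 to 2689 in *Gli3*-/- and 2245 to 2390 in *Gli3*+/- SP4 arrays, all above the 1120 to 1938 of WT. *Cd8b1* overlapped, at 2885 to 3126 in *Gli3*-/- and 2644 to 3371 in *Gli3*+/-, against 1721 to 3143 in WT SP4 arrays. The part of this difference in the genotype results of *Ccr4*, *Ccr7* and *Ccr8* was not tested. *Ccr4* was at 279 and 315 in *Gli3*-/- and 364 and 168 in *Gli3*+/- SP4 arrays, all below the 471 and 380 of WT. The differences from WT were -0.52 (95% interval -1.42 to 0.39) and -0.77 (-1.68 to 0.13). *Ccr7* was at 313 and 356 in *Gli3*-/- and 424 and 209 in *Gli3*+/- SP4 arrays, against 714 and 258 in WT SP4 arrays, and overlapped. In CD69+ DP cells *Ccr4* was at 620 and 390 in *Gli3*-/- and 663 and 277 in *Gli3*+/-, against 796 and 398 in WT arrays, where the spread between array 1 and array 2 was wider than that between genotypes.

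*Ccr9* and *Cxcr4*, the receptors of the cortical ligands, were not called between genotypes. *Ccr9* in CD69+ DP cells was at 1463 and 1241 in *Gli3*-/- and 1611 and 1199 in *Gli3*+/-, against 1664 and 1227 in WT arrays, with a difference between *Gli3*-/- and WT of -0.08 (95% interval -0.58 to 0.41). *Cxcr4* in CD69+ DP cells was at 858 and 1037 in *Gli3*-/- arrays, both below the 1187 and 1123 of WT (-0.29, -0.77 to 0.19), but was at 919 and 1078 in *Gli3*-/- SP4 arrays, against 677 and 1027 in WT SP4 arrays (0.26, -0.22 to 0.74). *Plxnd1* in CD69- DP cells was at 593 and 512 in *Gli3*-/-, against 607 and 624 in WT arrays (-0.16, -0.67 to 0.35). *Cxcr3* in the same cells was at 133 and 148 in *Gli3*-/-, against 123 and 115 in WT arrays (0.23, -0.15 to 0.62), which did not overlap, though sex was not balanced between genotypes and the gene is X-linked.

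In 2 against 2 arrays, lack of overlap is common. In *Gli3*-/- against WT cells it was seen for 2 of 8 members in each population, where it was seen for 29.1%, 28.8% and 30.4% of all genes, in the order of the populations. In *Gli3*+/- against WT cells 2, 1 and 3 of 8 members did not overlap, where 26.9%, 25.1% and 32.2% of all genes did not.

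**Figure D4:**
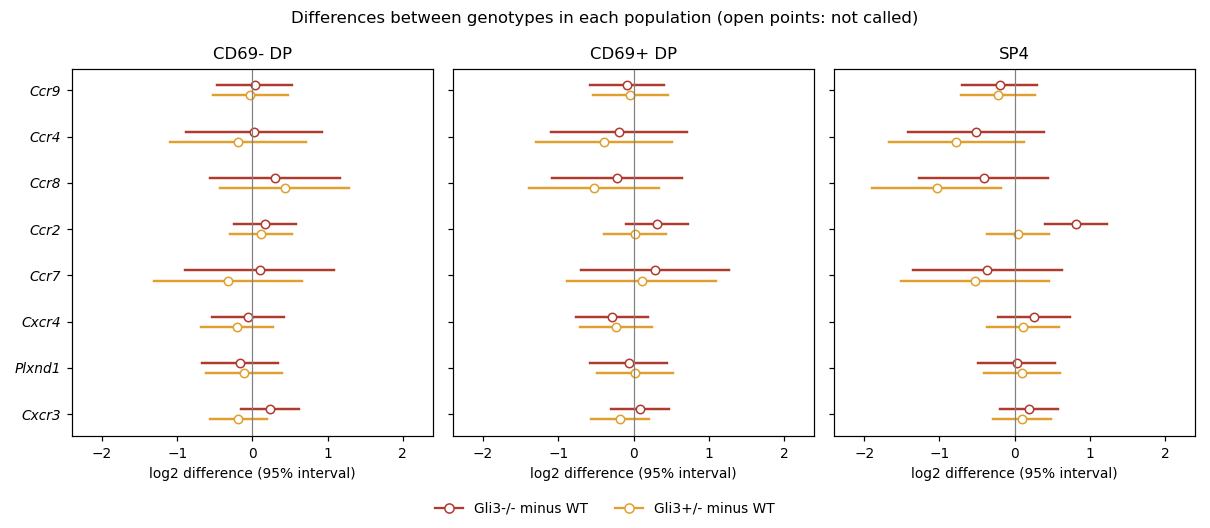
Log2 differences of the 8 genes (y axis) from WT in each population (panels), *Gli3*-/- minus WT in red and *Gli3*+/- minus WT in yellow, with 95% intervals (n = 2 arrays a group). Every point is open (not called), and *Ccr2* in *Gli3*-/- SP4 cells lies at 0.81.

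The steps between populations were also compared between genotypes, since a receptor could be gained at another size in the mutant. In *Gli3*-/-, *Gli3*+/- and WT cells alone, 1, 1 and 2 of 8 members were called between CD69+ DP and CD69- DP cells (0.289%, 0.189% and 0.681% of all genes), and 1, 0 and 2 between SP4 and CD69+ DP cells (0.194%, 0.0721% and 0.618%). These counts, once the array number was a block, were 2, 2 and 3 (2.95%, 1.74% and 3.74% of all genes), and 3, 2 and 4 (2.6%, 0.803% and 3.15%). A direct test of the difference between *Gli3*-/- and WT steps called 0 of 8 members and 0 of all genes at either step, with 458 and 858 genes at an unadjusted p under 0.05, none of them a member. For *Ccr2* the SP4 step was 1.44 in *Gli3*-/- cells (limma adjusted p = 0.0184), against 0.93 in WT cells (adjusted p = 0.0459), and differed by 0.50 (SE 0.27, adjusted p = 0.9996).

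The 2 arrays of a group differed in some of these genes in the same way throughout. In number 2 against number 1 arrays over the 9 groups, 2 of 8 members were called, where 11.6% of all genes were (7.56% higher and 4.02% lower). *Ccr9* was lower in number 2 in 9 of 9 groups, by 0.22 to 0.59 (mean -0.35, SE 0.06, limma adjusted p = 0.00107). Its intensities in number 2 and number 1 arrays did not overlap within a population: 869 to 918 against 1042 to 1066 in CD69- DP, 1199 to 1241 against 1463 to 1664 in CD69+ DP, and 689 to 902 against 1002 to 1081 in SP4 cells. *Ccr4* was lower in number 2 in 7 of 9 groups (mean -0.49, SE 0.14, adjusted p = 0.0358), and in CD69+ DP cells lay at 277 to 398 in number 2 arrays, against 620 to 796 in number 1 arrays. Its call was lost (-0.40 to -0.47) without any 1 of 8 arrays, those of CD69+ DP in each genotype and of *Gli3*+/- SP4. These are not 8 separate results, since leaving out either array of a group gives the same fit here.

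*Ccr7* (-0.45, limma adjusted p = 0.118), *Plxnd1* (0.24, adjusted p = 0.112) and *Cxcr4* (0.21, adjusted p = 0.155) were not called in number 2 against number 1 arrays. *Ccr7* was called without either array of *Gli3*+/- CD69- DP (-0.58, adjusted p = 0.0384), and *Plxnd1* without either array of *Gli3*-/- CD69- DP or of *Gli3*-/- SP4 (0.29 and 0.30, adjusted p = 0.0480 in both). On the same arrays 9 of 11 immediate early genes were called higher in number 2, with a summed level of 3663 to 7356 (median 4954) in number 2, against 1940 to 4209 (median 2428) in number 1 arrays. No source used here gives what the numbers stand for, and the part of these genes in the result was not tested.

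**Figure D5:**
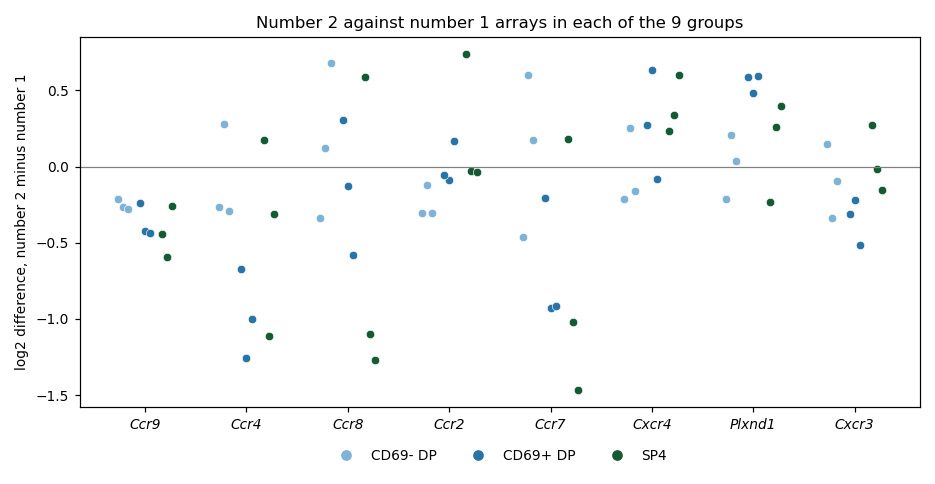
Log2 difference between array 2 and array 1 (y axis) in each of the 9 groups, for the 8 genes (x axis), with colour for the population. All 9 points of *Ccr9* lie below 0, from -0.59 to -0.22, and 7 of 9 points of *Ccr4* do.

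The genes most like the 4 widest-spanning members were taken over the 9 group means, among 786 genes that spanned at least 1 log2 unit, by Pearson's r. These points share populations and arrays, so that the values are a description. *Ccr8* was most like *Id2*, *Inpp4b* (r = 0.996 each) and *Slc15a1* (0.995), and 196 of the 786 genes were over 0.9. For *Ccr4* they were *Nr4a3* (0.996), *Gpr174* (0.994) and *Lef1* (0.992), with 98 over 0.9, for *Ccr2* *Itgae* (0.992), *Cst7* (0.990) and *Ipcef1* (0.978), with 68, and for *Ccr7* *Fxyd5* (0.993), *Akr1c18* and *Alox5ap* (0.986 each), with 127. *Nr4a3* is an immediate target of TCR signalling and *Itgae* encodes CD103, an integrin subunit, while *Id2* encodes an inhibitor of E proteins.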

How the data were processed

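The 18 arrays (Affymetrix, Mouse Gene 2.0ST) of sorted E18.5 thymocytes formed 9 groups of 2, taken from the deposited labels. The authors normalised the arrays together with RMA in the oligo package of R (versions not given in the sources used here) and deposited intensity values on a linear scale, of which log2 was taken here with no further scaling. Of 41345 rows, 23521 carried a single gene symbol from the platform annotation, and where 1082 genes had several such rows the brightest on average was kept, leaving 22180 genes. The sources used here give no build for the rows, and the columns of no listed sample numbered 0.

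Group means (9) were fitted to the deposited values on the log2 scale with limma 3.58.1 (lmFit and eBayes, R 4.3.3; 9 residual and 4.73 prior degrees of freedom), after tests on simulated data, with Benjamini-Hochberg adjustment over all genes. Steps between populations were averaged over the 3 genotypes, and genotypes were compared within each population. Number 2 was set against number 1 in a fit with group and number as terms. Array number was taken as linking the arrays across groups. Deviations of same-numbered arrays from their group means correlated in all 9 pairs of groups of 1 genotype (r = 0.13 to 0.44, median 0.29). They also correlated in the 9 pairs of 1 population and different genotypes (r = 0.24 to 0.55, median 0.39), so the link was not particular to a genotype or label. The main fits left the number out. The value with the number as a block stands beside a result where it changed the call. Alternatives were this block, the label as a random block, other normalisations, an offset, filters, an unmoderated test in place of limma's and each array left out. Members, lists and tests were chosen with earlier results of these data known. Every member was named, with the genes of a pathway list that passed at a step between successive populations and the 3 genes most like each member that spanned at least 1 log2 unit. Motifs were searched with Python 3.11.15, pandas 2.3.3, and figures drawn with matplotlib 3.10.9. Precision is limited by the number of arrays.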

Additional observations from a re-analysis of the deposited data

Results flagged for a closer look

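*Ccr8* in *Gli3*+/- cells lay on opposite sides of WT in the 2 DP populations. In CD69- DP cells its intensities were 42.4 and 46.2 in *Gli3*+/-, both above the 26.0 and 41.6 of WT arrays, a log2 difference of 0.43. In CD69+ DP cells they were 96.7 and 88.5 in *Gli3*+/-, both below the 163 and 109 of WT arrays, a difference of -0.52. The difference between these effects, tested after the values were seen, was -0.95 (SE 0.57, unadjusted p = 0.116, limma adjusted p = 0.9999) and was not called, as was no other gene in that test. Among 2 against 2 arrays, such lack of overlap was seen for 26.9% of all genes in CD69- DP and 25.1% in CD69+ DP cells.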

How the results depend on the processing

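Of 723 refits of the 32 values of members that the comparisons name, 683 kept the direction and the side of the threshold, 19 lost a call, 14 gained 1 and 7 changed sign. With the array number as a replicate block, counts of members called were 6, 5 and 6 of 8 in CD69+ DP against CD69- DP, SP4 against CD69+ DP and SP4 against CD69- DP cells, where 12.1%, 11.2% and 14.1% of all genes were called, against 7.79%, 6.15% and 9.78% without the block; *Cxcr4* was gained at the first and *Ccr4* at the second, and the block changed no other call of a member in these 3 comparisons or between genotypes. With the label as a random block (correlation 0.119) the counts stayed at 5, 4 and 6. In number 2 against number 1 arrays, leaving out either array of a group gives the same fit, so the 723 refits hold such repeats. Leaving out each array in turn gave 3 to 6 members at the first step (3 without array 1 of WT CD69+ DP), 4 to 5 at the second, 6 to 6 across both, 0 to 1 in *Gli3*-/- against WT SP4 cells, 0 to 0 in the other genotype comparisons and 1 to 3 in number 2 against number 1 arrays.

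Fits to arrays of 1 number alone, with additive terms, were chosen after seeing the data. Arrays of number 1 called 6, 5 and 6 members in the 3 comparisons of populations, *Cxcr4* at the first step (-0.55) and *Ccr4* at the second (-0.93) among them. Arrays of number 2 called 3 at the first step, and there *Ccr7* was at -0.14; *Cxcr3* between SP4 and CD69+ DP cells was at 0.18, and between -0.096 and 0.076 with single arrays left out, against -0.01 with all. With 16 added to each value before log2, 1 member was called in number 2 against number 1 arrays, and *Ccr4* was not (adjusted p = 0.0585). The cause of these changes was not tested, and the fits to arrays of 1 number alone also rest on fewer arrays. Quantile and cyclic loess normalisation, a trend in the prior, dim genes left out and the mean of a gene's rows changed no call of these members. For the 72 other comparisons of members, none was called in 1133 refits and 108 changed sign. Some calls start from dim signal: below the median of all rows (62.7) were the medians of *Ccr2*, *Ccr4*, *Ccr8*, *Ccl22*, *Ccl17* and *Plxnc1* in CD69- DP cells, of *Ccr2*, *Ccl17* and *Plxnc1* in CD69+ DP cells, and of *Rgs18* in all 3 populations.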
